A study of Homo sapiens with 6 samples.

Results

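The late phase of a coculture of intestinal epithelial cells with macrophages was set against its early phase. The late phase was the 24 and 48 h arrays and the early phase the 1, 3 and 6 h arrays, so that 5 of the series' 6 arrays entered and the 0 h array was not compared. It entered the calls only through the signal floor and the choice of probe set for each gene, which were set over all 6 arrays. Each array held RNA of Caco-2 cells, a human colon carcinoma line that takes on features of small intestinal enterocytes when it is kept confluent. The cells had grown for 14 days on a semi-permeable membrane before the membrane was set above THP-1 cells, a human monocytic leukaemia line turned macrophage-like with phorbol myristate acetate (PMA) over 4 days in 12-well plates. Late and early arrays shared all of this and differed in the hours of coculture. There was 1 array per time, no label named a separate culture, and no Caco-2 cells kept without THP-1 for the same hours were analysed here. A difference between phases can therefore not be told apart from time in culture, and a p-value sets it against the spread between times of a phase rather than between replicate cultures. The values are MAS5 signals, which are probe set intensities scaled to a common array mean.

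Macrophages release cytokines such as tumour necrosis factor and interleukins, which act on epithelial receptors and set free the transcription factor NF-kB from its inhibitor. NF-kB drives chemokines, which attract neutrophils and other leukocytes, and it also drives its own inhibitors, so that the response can be brief. Immediate early genes are transcription factors and feedback enzymes that cells switch on within minutes to hours of a stimulus, before new protein is made. Differentiated Caco-2 cells also express genes of liver-type serum proteins, apolipoproteins, conjugating enzymes and the cholesterol pathway.

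Signals under 16.2, the 50th percentile of all signals, were set to that floor before log2 was taken, and each gene was represented by its brightest probe set. A gene was measured when it was above the floor on at least 1 of the 5 arrays, which held for 14467 of 19775 genes. It was called higher late when both late arrays exceeded all 3 early arrays, and lower late when both lay below all 3. Of the measured genes, 2490 (17.2%) were higher late and 2232 (15.4%) were lower late, and the remaining 9745 overlapped. The gap of a gene is the log2 distance between its nearest late and early arrays. A gap of at least 2-fold, a size chosen after the values were seen, was found for 17 genes higher late (0.118%) and 79 genes lower late (0.546%). The median late minus early difference over all measured genes was -0.0038 on the log2 scale.

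limma with Benjamini-Hochberg adjustment over the 14467 genes called 0 genes higher (0%) and 1 gene lower (0.00691%) at an adjusted p of 0.05. At an unadjusted p of 0.05 the same fit held 2484 genes (17.2%), 1244 higher and 1240 lower late. When limma was run on the 10551 genes above the floor on all 5 arrays, it called 124 genes higher (1.18%) and 234 lower (2.22%). Of the genes with a 2-fold gap, 79 were in that fit and 78 of these were among those called. The gap and the fit use the same values of the same arrays, so this overlap is no separate support. For a single gene, 3 arrays against 2 cannot give a two-sided exact permutation p below 0.2. Genes below are therefore described by their signals, and some also by the log2 difference with limma's standard error (SE, 2 late and 3 early arrays). That SE also draws on the spread of other genes of similar brightness, so it is not the spread of a gene's own arrays alone. Where an adjusted p is printed for a gene, it is that of the full fit unless a setting is named. In the full fit it was above 0.05 for all but the gene called.

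The gene called was ANXA13, an annexin of intestinal and kidney epithelium that binds membranes in the presence of calcium. Its signal was 245 and 244 at 24 and 48 h, against 887, 857 and 846 at 1, 3 and 6 h. Arrays within each phase lay close together and the phases were far apart. The probe set used is of a kind that can match several transcripts (suffix _s_at). ANXA13 fell by 1.82 on the log2 scale (SE 0.10, 95% interval -2.06 to -1.58, limma adjusted p = 0.0437), and its 0 h signal of 695 lay between both phases. Its adjusted p was above 0.05 when any early array was left out, where it ranged from 0.168 to 0.401.

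The arrays were alike in overall brightness, with median signals between 15.3 and 16.7, and each of the 6 arrays had between 12017 and 12296 genes over the floor. The median absolute log2 difference was 0.215 between the late arrays, 0.209 to 0.312 between early arrays, and 0.281 to 0.347 between arrays of different phases, over 10436 genes. Some control probe sets moved with the phase. The manufacturer's 18 hybridisation controls averaged 9.98 and 9.97 on the log2 scale at 24 and 48 h, against 9.70, 9.67 and 9.66 at 1, 3 and 6 h. The ratio of 3′ to 5′ signal of ACTB is a measure of RNA integrity and labelling. It was 27.9 and 37.0 on the late arrays, against 27.7, 22.9 and 18.0 on the early arrays. The highest ACTB ratio, 51.2, was that of the 0 h array, which serves as a reference for signals below. The GAPDH ratio overlapped between phases. The part of these controls in the differences below was not tested.

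Markers of the labelled cell type were present throughout. All 14 enterocyte markers were measured, 13 or 14 of them above the floor on each array, and their summed signal was 24122 and 20659 at 24 and 48 h, against 28016, 28724 and 25631 at 1, 3 and 6 h. Of the 14, 8 were lower late (57.1%, all measured genes 15.4%) and 1, EPCAM, was higher (7.14%, all measured genes 17.2%). The median of the 14 was -0.48, the same direction as the enterocyte and serum protein lists described below. The markers include VIL1, SI, KRT20, APOA1 and APOB, which are described again with those genes. The shared direction is therefore no separate support. Of 18 macrophage markers with a probe set 11 were measured, and their summed signal was 703 and 706 on the late arrays, against 849, 638 and 690 on the early arrays. PTPRC, SPI1, ITGAX, CD4, FCGR2A, CORO1A and HLA-DRA stayed at the floor on all 5 arrays, LYZ and FCER1G were higher late, and MSR1 and AIF1 were lower late. In bulk RNA, fewer cells of a kind and less RNA per cell cannot be told apart.

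**Figure D1:**
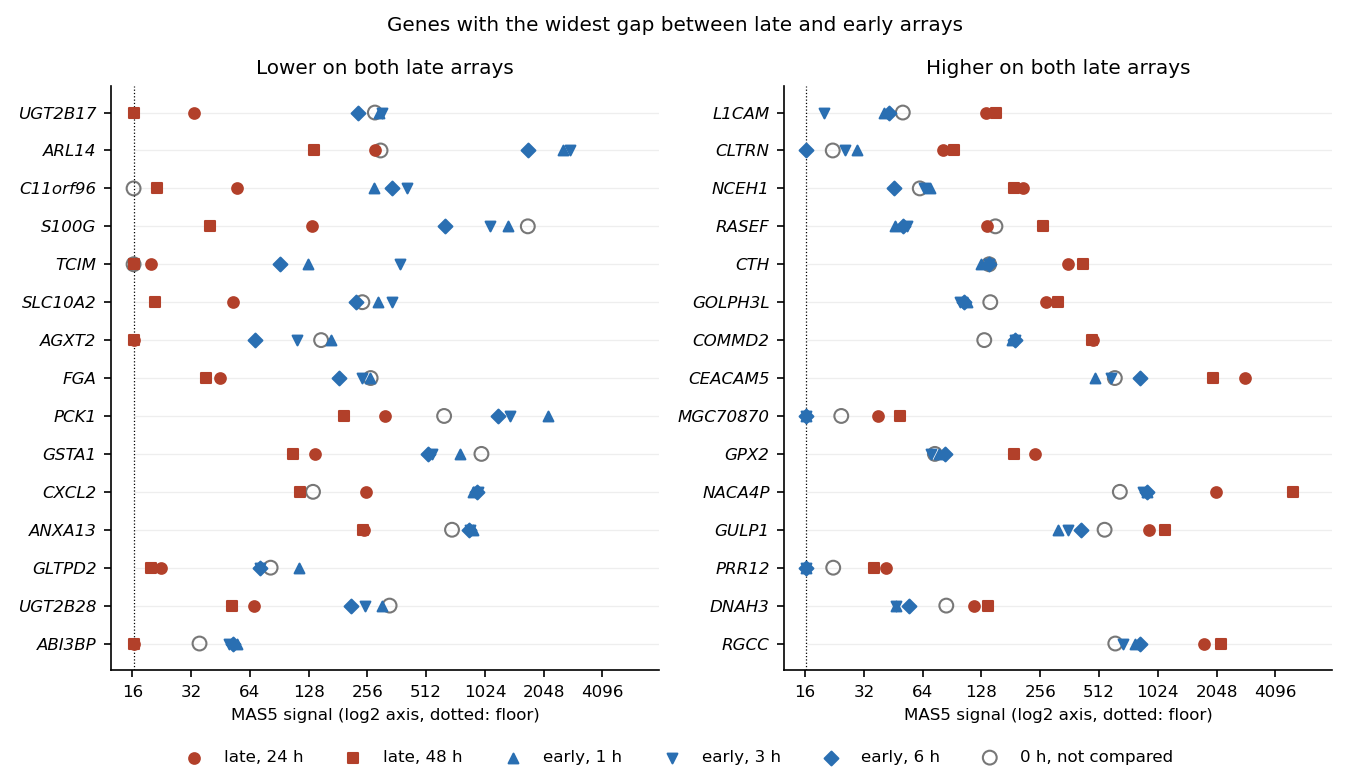
MAS5 signals on a log2 axis of the 15 genes lower late (left) and the 15 higher late (right) with the widest gap, with late arrays in red, early arrays in blue and the 0 h array as an open circle, 1 array per point. In each row the red and blue points do not overlap, and signals under the floor of 16.2 are drawn on the dotted line.

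Genes were also grouped into lists of 1048 entries in all, of which 101 had no probe set of their own, and counts are over measured members. These were 12 of 22 chemokines, 22 of 27 NF-kB pathway genes, 35 of 39 immediate early genes, 24 of 29 serum proteins, 17 of 20 coagulation genes, 19 of 21 apolipoprotein genes, 20 of 26 cholesterol genes and 18 of 22 heat shock genes. A gene that passed the floor in a single phase had to differ, so a count over measured members is no evidence by itself. Beside the counts below, "all genes" gives the share of all measured genes with the same call, 15.4% lower late or 17.2% higher late.

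Among the genes lower late, 6 of 12 measured chemokines lay below all early arrays and 0 lay above, where 15.4% of all measured genes were lower and 17.2% higher. The median of the 12 was -0.78 on the log2 scale, against -0.0038 for all genes. Over the same 12 genes it was -0.35 without the 48 h array, -1.21 without the 24 h array and -0.31 with each gene's probe sets taken as their median. Other settings also changed which chemokines were measured: it was -0.22 over 19 with the floor at the 30th percentile, -0.24 over 11 without probe sets that can match several transcripts, -1.76 over 8 with the floor at the 65th percentile and -1.79 over the 8 above the floor on all 5 arrays. The 6 genes were CXCL1, CXCL2, CXCL3 and CXCL8, which attract neutrophils, CXCL10, which attracts T cells, and CCL20, which attracts dendritic cells and lymphocytes.

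CXCL8 had a signal of 261 and 36.0 at 24 and 48 h, against 652, 925 and 1541 at 1, 3 and 6 h, and it was under the floor at 0 h. Both late arrays were below all early arrays, and the late arrays were far from each other (late minus early -3.33, SE 0.86, adjusted p = 0.158). The other CXCL8 probe set differed by -0.42, with overlapping phases. CXCL1 had 180 and 42.5 late, against 1158, 667 and 548 early, and 27.8 at 0 h. The difference was -3.10 (SE 0.66), with the early arrays highest at 1 h. CXCL2 had 253 and 116 late, against 890, 948 and 938 early, so that the early arrays were nearly equal, and 135 at 0 h (-2.43, SE 0.32). Its 2 other probe sets differed by only -0.24 and -0.09, with overlapping phases. CXCL3 had 109 and 39.3 late, against 256, 221 and 259 early (-1.90, SE 0.43). For each of these 4 genes the 48 h array was below the 24 h array.

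CCL20 and CXCL10 lay at the edge of the rule. CCL20 had 4229 and 1286 at 24 and 48 h, against 4303, 5520 and 5321 at 1, 3 and 6 h, so that its 24 h signal was just under that at 1 h. Its 0 h signal was 453, below every coculture array. CXCL10 had 113 and 34.4 late, against 133, 237 and 255 early (-1.68, SE 0.57, adjusted p = 0.233). All 6 chemokines had a 0 h signal at or below the higher of the late arrays.

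Of 22 measured NF-kB pathway genes 11 were lower late (50%, all genes 15.4%) and 9 overlapped. The 2 that were higher (9.09%, all genes 17.2%) were TNFAIP2 and TNIP2. The median of the 22 was -0.51, and it was -0.23 without the 48 h array and -0.78 without the 1 h array. NFKBIA encodes the inhibitor that keeps NF-kB out of the nucleus. It had 1457 and 505 at 24 and 48 h, against 3203, 3230 and 3103 at 1, 3 and 6 h (-1.89, SE 0.43), although its other probe set differed by 0.04. TNFAIP3, a ubiquitin-editing enzyme that damps NF-kB signalling, had 890 and 251 late, against 1802, 1778 and 1819 early (-1.93, SE 0.51). In both genes the early arrays were nearly level and the late arrays were far from each other. The NF-kB subunit gene REL had 176 and 139 late, against 484, 380 and 361 early. IER3, a survival gene, had 1123 and 564 late, against 3763, 3312 and 2783 early (-2.03, SE 0.31). CD83, a surface protein, had 45.1 and 23.9 late, against 129, 97.5 and 105 early. Of the 11 members lower late, 10 had a 0 h signal at or below the higher late array.

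The kappaB core is the sequence that NF-kB binds, and it is shown because it occurs in the promoters of several of these genes. The core was searched as 3 G, any 2 bases, 2 T, any 1 base and 2 C, on both strands in windows of 300 bases around the gene start, from RefSeq on GRCh38.p14, available for 11570 of the 14467 measured genes. They were found in 767 of these windows (6.63%), in 5 of 9 chemokine windows (55.6%) and in 5 of 19 NF-kB pathway windows (26.3%). The stretches below are read 5′ to 3′ on the gene's strand, and capitals mark the match. CXCL1 lies at chr4:73869289-73869348 on the plus strand, CXCL2 at chr4:74099239-74099298 and CXCL3 at chr4:74038734-74038793 on the minus strand. CCL20 lies at chr2:227813737-227813797 and TNFAIP3 at chr6:137867167-137867238 on the plus strand, NFKBIA at chr14:35404796-35404855 on the minus strand, and REL at chr2:60881503-60881562 on the plus strand.
CXCL1: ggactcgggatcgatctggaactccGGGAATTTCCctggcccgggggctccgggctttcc
CXCL2: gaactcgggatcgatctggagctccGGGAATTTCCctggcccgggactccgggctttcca
CXCL3: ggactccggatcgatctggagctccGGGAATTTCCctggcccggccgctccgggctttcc
CCL20: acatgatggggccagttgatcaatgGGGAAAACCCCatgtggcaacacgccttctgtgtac
NFKBIA: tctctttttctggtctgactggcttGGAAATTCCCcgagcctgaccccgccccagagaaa
TNFAIP3: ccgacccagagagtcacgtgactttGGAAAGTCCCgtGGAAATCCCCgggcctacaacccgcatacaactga
REL: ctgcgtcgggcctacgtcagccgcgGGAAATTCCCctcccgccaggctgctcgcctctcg

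CXCL1, CXCL2 and CXCL3 carried the same matched letters, 79, 78 and 79 bases before the gene start, in stretches that look nearly alike. These genes are close copies, so the array's probes may cross-react between them and their signals are not independent. In NFKBIA, TNFAIP3, REL and CCL20 the match was on the opposite strand. TNFAIP3 held 2 matches, and the 2 matches of CCL20 overlap. Over all genes lower late, the core was found in 43 of 393 windows (10.9%) of genes whose 0 h signal was at or below the higher late array and in 69 of 1164 windows (5.93%) of genes whose 0 h signal was at or above the lowest early array. A match is a description of letters and not a bound site.

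CXCL8 held a match to the AP-1 element TGANTCA, which FOS and JUN proteins bind, 137 bases before its start, at chr4:73740407-73740463 on the plus strand (RefSeq, GRCh38.p14). That element was found in 2 of 9 chemokine windows (22.2%) and in 567 of all 11570 windows (4.90%). It is shown because CXCL8 had the largest late minus early difference of the 12 chemokines, and capitals mark the match. The CXCL8 window held no match to the kappaB core as spelled above. Other spellings were not searched, so this does not show that the promoter lacks a site for NF-kB.
CXCL8: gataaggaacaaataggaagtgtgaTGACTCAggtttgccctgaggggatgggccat

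Immediate early genes were also lower late, 18 of 35 measured members (51.4%, all genes 15.4%), with a median of -0.55. The 2 that were higher (5.71%, all genes 17.2%) were NR4A2 and ZFP36L1. EGR1, a zinc finger transcription factor, had 963 and 1232 at 24 and 48 h, against 4944, 4071 and 2718 at 1, 3 and 6 h (-1.80, SE 0.27). JUNB, an AP-1 subunit, had 141 and 188 late, against 693, 536 and 548 early (-1.85, SE 0.19, adjusted p = 0.0768). FOSL1, another AP-1 subunit, had 50.8 and 24.8 late, against 241, 135 and 142 early (-2.23, SE 0.42). ZFP36, which speeds the decay of messenger RNAs of cytokines, had 383 and 230 late, against 735, 854 and 1164 early. In these 4 genes the 0 h signal was at or below the higher late array, at 714, 112, 39.3 and 165. Not every early-response gene kept this order. FOS had 176 and 101 late, against 140, 338 and 502 early, so that its phases overlapped, and MYC had 861 and 437 late, against 798, 1255 and 1760 early. Of the 18 members lower late, 16 had a 0 h signal at or below the higher late array.

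Ligands of the EGF receptor and feedback regulators of Ras signalling had 15 measured members. Of these 5 were lower late (33.3%, all genes 15.4%) and 1 was higher (6.67%, all genes 17.2%). SPRY4, an inhibitor of Ras signalling, had 56.7 and 38.5 late, against 122, 136 and 119 early. EPHA2, a receptor tyrosine kinase, had 224 and 122 late, against 378, 347 and 452 early. SPRY1, of the same inhibitor family, went the other way, with 189 and 223 late, against 98.2, 161 and 139 early. ID1, a target of bone morphogenetic protein signalling, showed how far times within a phase can differ: it had 40.3 and 33.6 late, against 1110, 128 and 41.6 early, and the 6 h array alone was nearly level with 24 h.

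**Figure D2:**
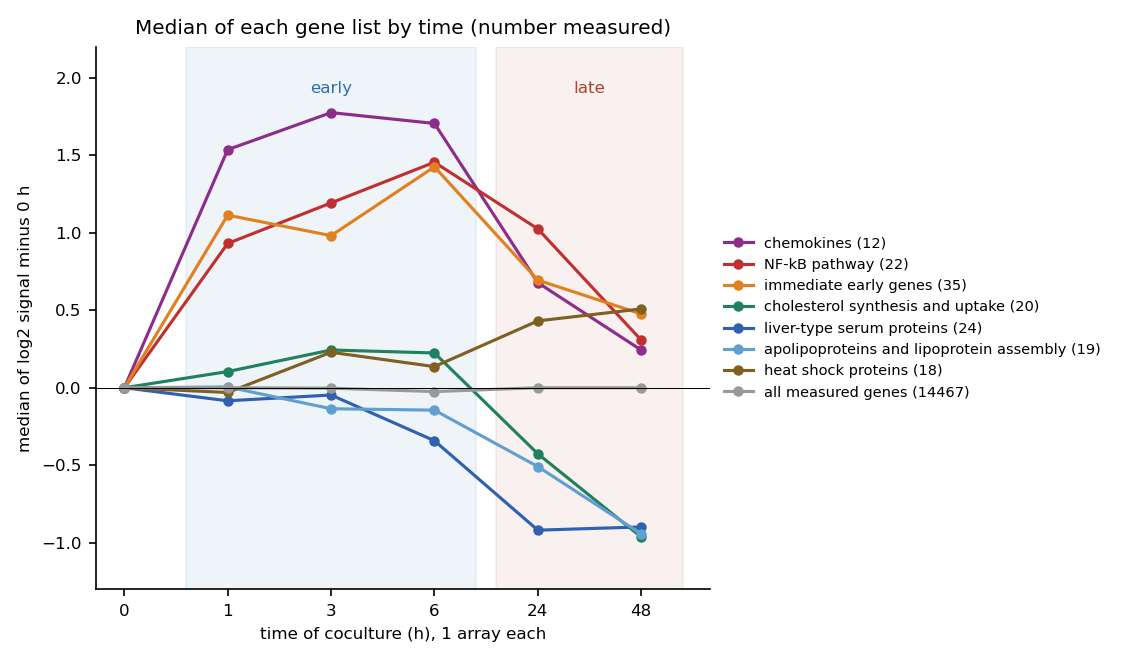
Median log2 signal of each gene list minus the 0 h array (vertical axis) at 0, 1, 3, 6, 24 and 48 h of coculture (horizontal axis, 1 array each), with the number of measured members in the legend. The chemokine median was 1.54, 1.78 and 1.71 at 1, 3 and 6 h and 0.68 and 0.24 at 24 and 48 h, whereas that of the serum proteins was -0.08, -0.05 and -0.34 at 1, 3 and 6 h and -0.92 and -0.90 at 24 and 48 h.

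The 0 h array separated 2 kinds of genes lower late. It also had the highest ACTB ratio of all arrays, 51.2, and whether that moved the counts was not tested. Of the 2232 genes, 1418 (63.5%) had a 0 h signal at or above the lowest early array, 489 (21.9%) had one at or below the highest late array and 325 (14.6%) lay between. Among the 79 with a 2-fold gap the counts were 42, 18 and 19. The 18 included CXCL1, CXCL2, CXCL3, CXCL8, EGR1, EGR4, FOSL1, JUNB, IER3, NFKBIA, REL and CD83. The 42 included serum proteins, conjugating enzymes and transporters. Of the 79 genes, 48 (60.8%) were lower at 48 h than at 24 h, against 58.5% of all genes lower late, and 6 h was the lowest early array in 51.

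**Figure D3:**
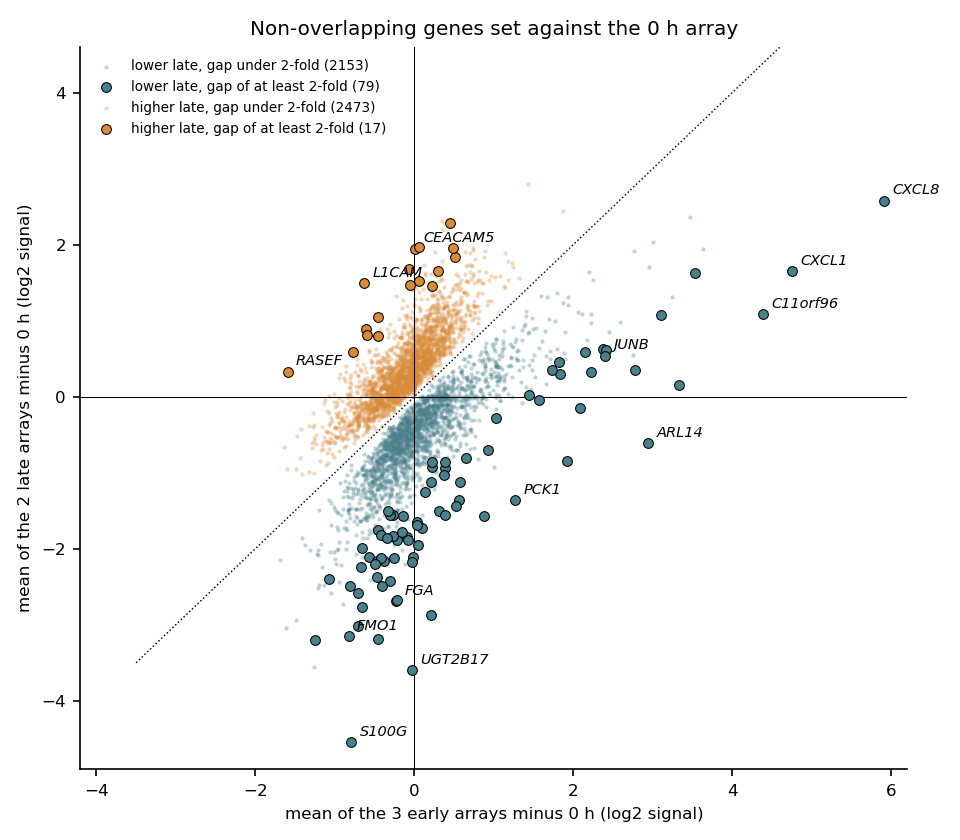
Genes whose phases do not overlap, 1 point per gene, with the mean of the early arrays minus 0 h (horizontal) and the mean of the late arrays minus 0 h (vertical), both in log2 signal. Outlined points have a gap of at least 2-fold, and CXCL8 and CXCL1 lie far to the right of 0 while S100G and UGT2B17 lie at or left of 0 on the horizontal and far below 0 on the vertical axis.

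Liver-type serum proteins were lower late in 17 of 24 measured members (70.8%, all genes 15.4%) and higher in 0, with a median of -0.72. ALB, which encodes albumin, the main plasma carrier protein, had 1805 and 1702 at 24 and 48 h, against 3297, 3106 and 2371 at 1, 3 and 6 h (-0.72, SE 0.17). TF, the plasma iron carrier transferrin, had 173 and 84.4 late, against 539, 463 and 366 early (-1.90, SE 0.34). SERPINC1, which encodes antithrombin, had 97.6 and 71.4 late, against 343, 269 and 220 early. SERPINA6, the cortisol carrier, had 301 and 239 late, against 615, 677 and 596 early (-1.23, SE 0.14). Members differed in size, and AHSG overlapped between phases, with 6528 and 6096 late, against 6778, 6747 and 6284 early. Of the 17 members lower late, 16 had a 0 h signal at or above the lowest early array.

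Coagulation genes followed, with 12 of 17 measured members lower late (70.6%, all genes 15.4%) and 0 higher (median -0.72). The 3 fibrinogen chains, which together form the clot protein, were all lower on both late arrays. FGA had 44.9 and 38.0 at 24 and 48 h, against 263, 241 and 184 at 1, 3 and 6 h (-2.46, SE 0.23, adjusted p = 0.0768). FGB had 699 and 267 late, against 1578, 1815 and 1331 early (-1.85, SE 0.41). FGG had 337 and 310 late, against 1103, 990 and 810 early (-1.57, SE 0.16). The phases were further apart than any arrays within a phase for FGA and FGG, whereas the late arrays of FGB differed more than 2-fold. F3, tissue factor, was the member of this list whose 0 h signal lay at or below the higher late array, with 269 and 223 late, against 570, 769 and 567 early, and 178 at 0 h. Complement genes gave 5 of 17 lower (29.4%, all genes 15.4%) and 0 higher (all genes 17.2%).

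Apolipoproteins and genes of lipoprotein assembly were lower late in 12 of 19 measured members (63.2%, all genes 15.4%). Of the rest 1, SAR1B, was higher (5.26%, all genes 17.2%), and the list's median was -0.62. MTTP loads lipid onto apolipoprotein B. It had 438 and 292 at 24 and 48 h, against 1258, 1077 and 1116 at 1, 3 and 6 h (-1.68, SE 0.19). DGAT2, which makes triglyceride, had 639 and 553 late, against 1356, 1423 and 1433 early (-1.24, SE 0.11). APOM, a carrier of sphingolipid, had 653 and 524 late, against 2229, 1931 and 1232 early. APOA1, the main protein of high-density lipoprotein, had 2824 and 2505 late, against 4411, 4662 and 3324 early. APOB, the structural protein of chylomicrons, had 4597 and 3402 late, against 5938, 6440 and 6110 early (-0.64, SE 0.15). Without probe sets that can match several transcripts 4 of 11 members were lower late, with a median of -0.22.

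Cholesterol genes gave 15 of 20 measured members lower late (75%, all genes 15.4%) and 0 higher, with a median of -0.93. Without probe sets that can match several transcripts 12 of 14 were lower late, with a median of -1.01. The 15 span the pathway. HMGCS1, an early enzyme, had 2470 and 1502 at 24 and 48 h, against 3770, 4984 and 4451 at 1, 3 and 6 h (-1.18, SE 0.24). SQLE, which oxidises squalene, had 855 and 656 late, against 1355, 1940 and 1952 early (-1.20, SE 0.21). LSS, which closes the sterol rings, had 460 and 408 late, against 1082, 1092 and 915 early (-1.24, SE 0.13, adjusted p = 0.0768). INSIG1, which retains the sterol sensor in the endoplasmic reticulum, had 1847 and 1274 late, against 4014, 4701 and 3693 early (-1.42, SE 0.20). In each of these 4 genes the early arrays were well above both late arrays. The 0 h signal of the 15 lay at or above the lowest early array in 7, between the phases in 7 and at or below the higher late array in 1. MVK, PMVK, MVD, HSD17B7 and the regulator SREBF2 overlapped between phases. The sterol element TCACNCCAC was found in 1 of 18 windows of this list and in 129 of all 11570 windows (1.11%).

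**Figure D4:**
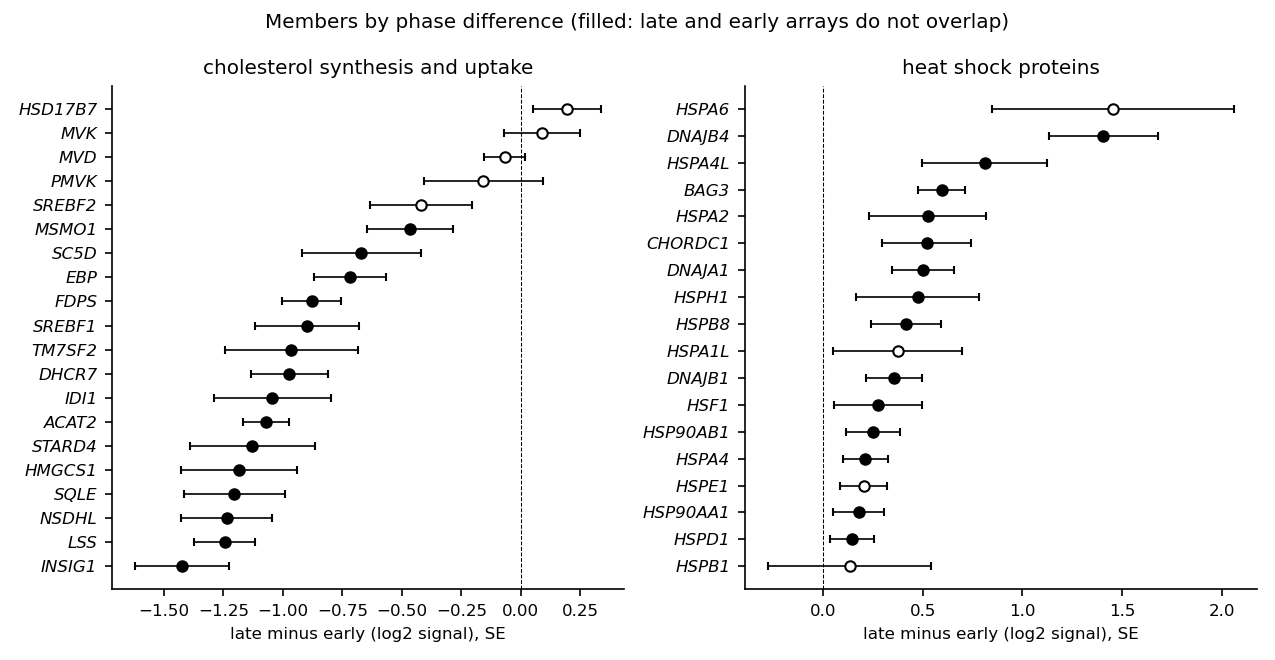
Late minus early difference in log2 signal (horizontal axis) of each measured member of the cholesterol list (left) and the heat shock list (right). Bars are limma's SE from 2 late and 3 early arrays. Filled points are members whose phases do not overlap: 15 of 20 cholesterol genes lie left of 0 and 14 of 18 heat shock genes lie right of it.

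Enterocyte functions were mixed. In the brush border list 12 of 34 measured members were lower late (35.3%, all genes 15.4%), with a median of -0.28. The 3 that were higher (8.82%, all genes 17.2%) were PLS1, EPS8 and KRT18. S100G, the vitamin D-dependent calcium-binding protein of the enterocyte, had 134 and 39.8 at 24 and 48 h, against 1341, 1093 and 641 at 1, 3 and 6 h (-3.75, SE 0.58, adjusted p = 0.102). Its signal was lower at each later time, and its 0 h signal was 1699. The disaccharidase genes LCT and SI were lower as well. LCT, which splits lactose, had 141 and 83.2 late, against 362, 410 and 377 early (-1.82, SE 0.25). SI, which splits sucrose, had 291 and 123 late, against 528, 626 and 638 early (-1.65, SE 0.36). KRT20, a keratin of differentiated enterocytes, overlapped between phases, with 836 and 412 late, against 263, 545 and 674 early. VIL1, which bundles actin in the microvillus, had 1417 and 1406 late, against 2257, 2328 and 1605 early, but the median over its probe sets was higher late by 0.23.

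Transporters gave 11 of 34 measured members lower late (32.4%, all genes 15.4%) and 2 higher (5.88%, all genes 17.2%), SLC2A3 and SLC3A2. SLC10A2, the ileal bile acid uptake transporter, had 52.2 and 20.8 late, against 289, 340 and 224 early (-3.09, SE 0.43). SLC2A5, the fructose transporter, had 345 and 340 late, against 1163, 861 and 747 early (-1.41, SE 0.20). SLC2A3, a glucose transporter, had 6931 and 8040 late, against 3659, 3720 and 4892 early (0.88, SE 0.17). The late arrays of SLC10A2 differed more than 2-fold, while those of SLC2A5 were nearly equal.

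Genes of drug metabolism and ABC transporters gave 21 of 42 measured members lower late (50%, all genes 15.4%) and 1 higher. The list's median was -0.56. UGT2B17, a steroid-conjugating enzyme, had 33.1 at 24 h and was under the floor at 48 h, against 293, 306 and 230 at 1, 3 and 6 h, which makes it at least 11.8-fold lower late. UGT2B28 had 67.0 and 51.9 late, against 305, 248 and 212 early, and UGT2B15 had 79.1 and 46.4 late, against 259, 260 and 160 early. These genes are close copies, and cross-reaction between their probe sets cannot be told apart from a shared difference. GSTA1, a glutathione transferase, had 138 and 106 late, against 766, 549 and 523 early (-2.32, SE 0.22), whereas its other probe set was higher late by 0.42. FMO1, a flavin monooxygenase, had 31.9 and 28.5 late, against 261, 151 and 87.0 early. ABCB1, the efflux pump P-glycoprotein, was the member higher late, with 727 and 531 late, against 257, 367 and 524 early, and its 48 h and 6 h arrays were nearly level.

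PCK1 and AGXT2 were among the 15 genes lower late with the widest gap, and the other 4 enzymes described here were chosen from the 79 after their values were seen. PCK1, which controls gluconeogenesis, had 314 and 194 at 24 and 48 h, against 2168, 1371 and 1192 at 1, 3 and 6 h (-2.63, SE 0.32), and its 0 h signal was 633. AGXT2, a mitochondrial aminotransferase, was under the floor on both late arrays, against 166, 111 and 67.9 early, so that it was at least 6.65-fold lower late. CPS1, the entry enzyme of the urea cycle, had 86.3 and 60.6 late, against 217, 233 and 242 early. TDO2, which breaks down tryptophan, had 71.3 and 25.3 late, against 147, 278 and 307 early. AKR1D1, which reduces steroids and bile acid precursors, had 79.1 and 83.6 late, against 521, 350.8 and 232 early. HSD3B1, a steroid dehydrogenase, had 419 and 350 late, against 966, 897 and 877 early (-1.25, SE 0.12, adjusted p = 0.0768). In each of these 6 genes both late arrays were well below all early arrays. PCK1, AKR1D1 and AGXT2 were highest at 1 h among the early arrays, and TDO2 at 6 h.

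ARL14, C11orf96 and TCIM had some of the widest gaps. ARL14, an ARF-like small GTPase, had 280 and 136 late, against 2559, 2799 and 1694 early (-3.55, SE 0.37, adjusted p = 0.0768), and 299 at 0 h. C11orf96 had 55.0 and 21.4 late, against 277, 411 and 341 early, and was under the floor at 0 h. TCIM had 19.9 at 24 h and was under the floor at 48 h, against 126, 375 and 90.9 early. In these 3 genes the early arrays stood above 0 h as well as above both late arrays.

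Among the 57 of the 79 genes with a promoter window, 16 (28.1%) held the letters TATAAA, the core promoter element bound by the TATA-binding protein, against 791 of all 11570 windows (6.84%). The AP-1 letters TGANTCA were found in 6 of the 57 (10.5%) and the kappaB core in 7 (12.3%). The 57 follow from a gap size chosen after the values were seen. Over the 1805 windows of all genes lower late, TATAAA was found in 106 (5.87%), the AP-1 letters in 82 (4.54%) and the kappaB core in 135 (7.48%). The shares over all windows were 4.90% for the AP-1 letters and 6.63% for the kappaB core. Of the 14 genes higher late with a 2-fold gap and a window, 0 held TATAAA. No test was made of these shares.

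**Figure D5:**
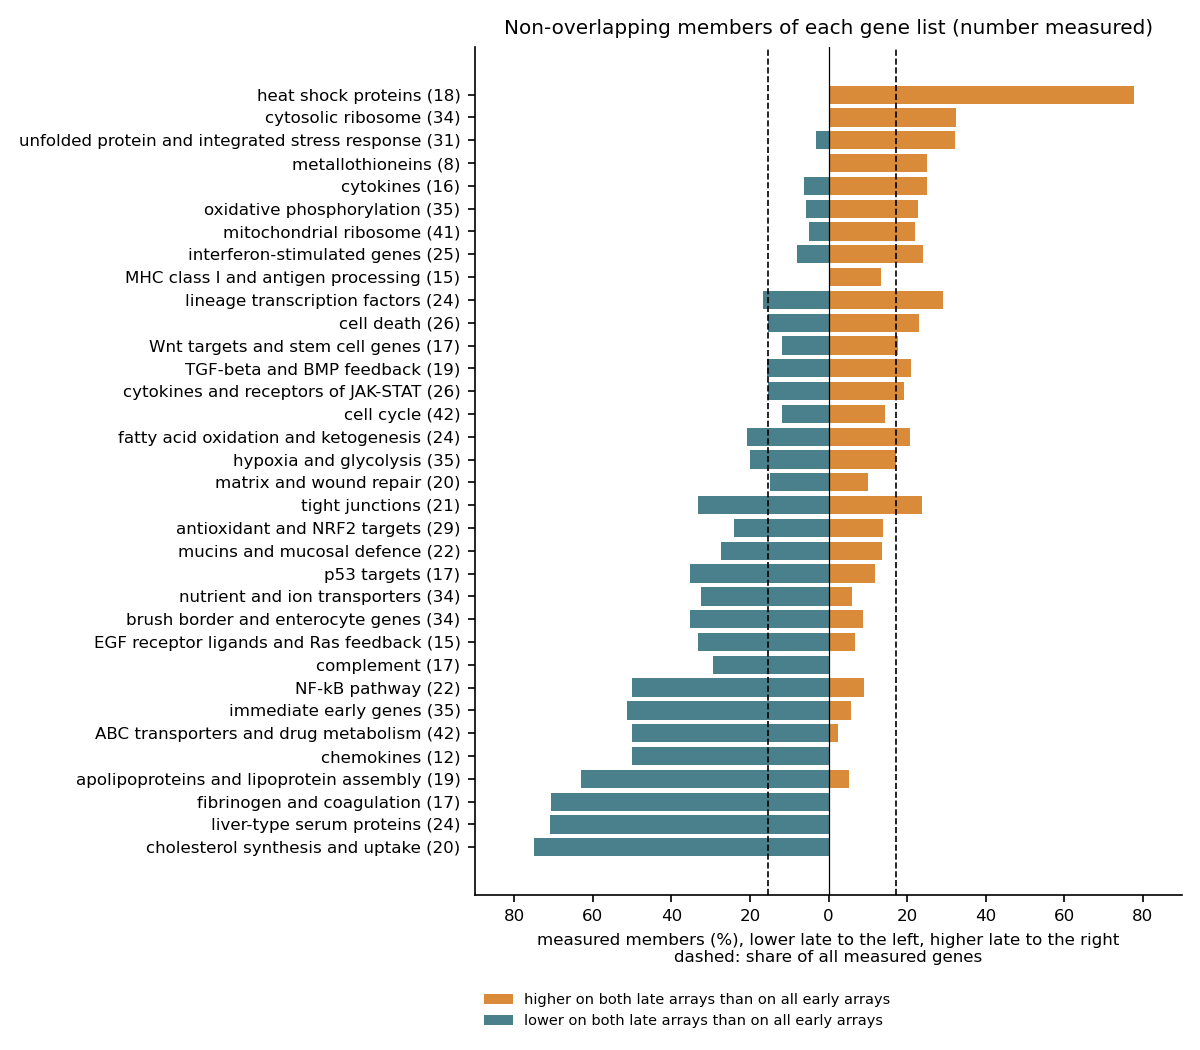
Share of measured members of each gene list (%, number measured in parentheses) that were higher late (right) and lower late (left), with dashed lines at 17.2% and 15.4%, the shares of all measured genes. Cholesterol genes, serum proteins and coagulation genes reach farthest left, and heat shock proteins reach farthest right.

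Heat shock proteins were the list with the highest share of members higher late. They bind unfolded proteins and help them refold. Of 18 measured members 14 were higher on both late arrays (77.8%, all genes 17.2%) and 0 lower, with a median of 0.40. The differences were small for most members, and the count rests on the choice of probe set. It was 5 of 13 higher and 1 lower without probe sets that can match several transcripts, and 8 of 18 higher and 1 lower when all probe sets of a gene were replaced by their median. DNAJB4, a co-chaperone, had 79.6 and 55.0 at 24 and 48 h, against 21.1, 23.9 and 30.8 at 1, 3 and 6 h (1.41, SE 0.27, adjusted p = 0.118). BAG3, which links chaperones to autophagy, had 1252 and 1333 late, against 764, 892 and 915 early (0.60, SE 0.12). HSPH1, a nucleotide exchange factor of the chaperone cycle, had 2524 and 2608 late, against 1200, 2262 and 2315 early, and only the 1 h array was far below the others. HSPA6, a strictly inducible member, overlapped between phases, with 280 and 105 late, against 42.4, 49.7 and 116 early. HSP90AA1 had 6408 and 6377 late, against 5101, 6324 and 5592 early (0.18, SE 0.13), and it was called higher late with its 48 h array just above its 3 h array.

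The heat shock element, bound by heat shock factors, was searched on both strands as TTC, GAA and TTC with any 2 bases between each, and found in 3 of 17 windows of the list (17.6%), HSPA6, DNAJA1 and CHORDC1, and in 42 of all 11570 windows (0.363%). CHORDC1, an HSP90 co-chaperone, had 2146 and 2345 late, against 1161, 1804 and 1827 early (0.52, SE 0.22). Its stretch holds 3 overlapping matches, at chr11:90223062-90223134 on the minus strand, and that of HSPA6 holds 1, at chr1:161524441-161524503 on the plus strand (RefSeq, GRCh38.p14). They are shown because the phases of CHORDC1 did not overlap and those of HSPA6 did, and capitals mark the matches.
CHORDC1: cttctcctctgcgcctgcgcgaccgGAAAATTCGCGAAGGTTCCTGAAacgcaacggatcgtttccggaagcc
HSPA6: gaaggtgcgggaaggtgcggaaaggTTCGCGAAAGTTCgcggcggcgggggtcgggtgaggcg

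The unfolded protein response, by which the endoplasmic reticulum adjusts to misfolded protein, had 31 measured members with a median of 0.19. Of these 10 were higher late (32.3%, all genes 17.2%) and 1, ATF4, was lower (3.23%, all genes 15.4%). DNAJB9, a chaperone of that compartment, had 2571 and 3382 late, against 1133, 1030 and 1572 early (1.27, SE 0.22). HSPA5, its main chaperone, had 3666 and 4495 late, against 2529, 2703 and 2892 early (0.59, SE 0.13). The stress transcription factors XBP1 and DDIT3 overlapped between phases. XBP1 had 2200 and 2572 late, against 2000, 2187 and 2657 early. Cytosolic ribosomal proteins were higher late in 11 of 34 members (32.4%, all genes 17.2%) and lower in 0, with a median of 0.07. The count moved with the scaling, to 8 higher and 3 lower after quantile normalization and 15 higher and 0 lower with a common median, while the list's median stayed above 0, at 0.06 and 0.09.

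Of the 17 genes higher late with a 2-fold gap, 1 was a member of a list, GPX2 among the antioxidant genes. CEACAM5, the carcinoembryonic antigen of the epithelial surface, had 2874 and 1975 at 24 and 48 h, against 490, 592 and 833 at 1, 3 and 6 h (1.94, SE 0.27, adjusted p = 0.102), and 617 at 0 h. L1CAM, a cell adhesion molecule, had 135 and 151 late, against 40.3, 19.9 and 43.2 early (2.13, SE 0.39). CLTRN, which helps amino acid transporters reach the membrane, had 81.0 and 92.1 late, against 29.5 and 25.7 at 1 and 3 h and a signal under the floor at 6 h. NCEH1, a cholesterol ester hydrolase, had 210 and 188 late, against 70.0, 64.6 and 45.5 early. CTH, which makes cysteine, had 356 and 423 late, against 127, 139 and 140 early (1.52, SE 0.15, adjusted p = 0.0768). GPX2, the gastrointestinal glutathione peroxidase, had 240 and 188 late, against 77.5, 70.9 and 83.4 early (1.46, SE 0.20). In CTH and GPX2 the early arrays were nearly level with the 0 h signals of 140 and 73.9.

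RASEF, a RAB-type GTPase, had 137 and 263 late, against 45.9, 53.4 and 50.9 early, and its 0 h signal of 151 stood with the late arrays. It was the 1 gene of the 17 with that order, while 9 had a 0 h signal at or below the highest early array and 7 lay between. HSPA13, an HSP70-type protein, had 891 and 1221 late, against 327, 387 and 425 early (1.47, SE 0.19). GULP1, an engulfment adaptor, had 926 and 1118 late, against 316, 355 and 416 early. NACA4P, listed as a pseudogene of NACA and so open to cross-reaction, had 2032 and 5041 late, against 907, 863 and 903 early. The early arrays of PRR12 and MGC70870 were all under the floor, and these genes were at least 2.39-fold and 2.65-fold higher late. The other probe sets of DNAH3 and RNF32 did not share the direction.

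CASP5, an inflammatory caspase, had 68.5 and 313 late, against 41.7, 36.7 and 35.3 early, so that the 48 h array stood far above all others (1.95, SE 0.64). PGF, a growth factor of vessels, had 562 and 1292 late, against 347, 349 and 431 early (1.19, SE 0.36). In both genes the 48 h array was highest and the 24 h array lay between it and the early arrays. IL15, a cytokine of lymphocytes, had 39.3 and 43.2 late, against 23.8 and 24.6 at 3 and 6 h and a signal under the floor at 1 h.

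The genes nearest the 2-fold threshold were HSPA13 and RNF32 inside it on the higher side, with gaps of 1.07 and 1.06 on the log2 scale, and CAV1 and COL3A1 just outside, with 0.9957 and 0.9963. On the lower side ERCC6 and ECM2 were inside, with gaps of 1.007 and 1.002, and TNFAIP3 and INSIG1 outside, with 0.9985 and 0.9996. For the 79 genes, 52 of 59 other probe sets (88.1%) differed in the same direction, for the 17 genes 9 of 11 (81.8%), and for all measured genes 61.5% did. Fewer met the call itself: 30 of 59 (50.8%) and 6 of 11 (54.5%) were non-overlapping in that direction, and 20.5% for all measured genes. Most measured genes differed little between phases, so their shares are no like-for-like comparison. Other lists had members in both directions, where 17.2% of all measured genes were higher and 15.4% lower. Tight junctions gave 5 higher (23.8%) and 7 lower (33.3%) of 21. The cell cycle gave 6 (14.3%) and 5 (11.9%) of 42, and hypoxia and glycolysis 6 (17.1%) and 7 (20%) of 35. The shares of the cell cycle and of hypoxia and glycolysis were near those of all genes. Interferon-stimulated genes gave 6 higher and 2 lower of 25, with a median of 0.02.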

How the data were processed

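RNA of Caco-2 cells was hybridised to 6 Affymetrix arrays, 1 per time. Per the labels' protocols, biotin-labelled cRNA was made from 4 µg of total RNA. The authors deposited linear-scale intensities, which the submitters' processing notes credit to MAS5. The version of MAS5, its scaling target and its detection calls were not stated in them. Low MAS5 signals are noisy, and the scaling removes differences in total RNA.

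Intensities were floored at the 50th percentile pooled over the 6 arrays, then transformed to log2. The platform's annotation gave exactly 1 gene symbol to 41097 of 54675 probe sets, several to 1801 and none to 11777, and 41043 matched a RefSeq gene of GRCh38.p14 by gene identifier. The 62 control probe sets and those without exactly 1 symbol were left out. The brightest probe set by mean log2 stood for each of 19775 genes. limma 3.58.1 in R 4.3.3 (lmFit, eBayes with an intensity trend) compared 2 late with 3 early arrays without a batch term, since no label names a batch. The fit was also run on simulated data, which held no change with time within a phase, and no result here rests on that run. Replicate numbers within a phase were given in accession order and pair nothing. The number of arrays limits the precision.

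Genes named are the 15 in each direction with the widest gap and every array of the higher side above the floor, up to 4 non-overlapping members of each of 39 gene lists by gap, and a fixed list of coculture genes, 175 in all. Others named were chosen after their values were seen. Members, lists and tests were chosen with earlier results of these data known, so no list is independent support. Alternatives were quantile normalization, a common median, other floors, a pseudocount, other probe set rules, genes above the floor on all 5 arrays, no intensity trend, the 24 h array against the 1 h array, and leaving out each array.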

Additional observations from a re-analysis of the deposited data

How the results depend on the processing

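Calls by limma depended on the processing. The full fit gave 0 genes higher late and 1 lower late, against 5 and 17 with the floor at the 30th percentile, 12 and 31 with the floor at the 65th, 181 and 316 with the floor value as a pseudocount, and 124 and 234 with only genes above the floor on all 5 arrays. The lower count was 2 with the median over probe sets, 0 without probe sets that can match several transcripts (suffix _x_at or _s_at), and 0 without an intensity trend. Leaving out these suffixes drops the probe set used for ANXA13, so that 0 does not retest its call. The counts of non-overlapping genes stayed within 1.5 times of the main counts under every alternative that kept all 5 arrays. Genes with a 2-fold gap numbered 55 higher late with the floor at the 30th percentile, 10 higher and 51 lower with the median over probe sets, and 52 lower with a pseudocount. Leaving out 1 array at a time, which leaves fewer arrays to order, gave 2896 to 4267 genes higher and 2653 to 3599 lower, 25 to 115 and 90 to 217 with a 2-fold gap, and 0 to 256 and 0 to 18 past limma's adjusted p of 0.05. Without the 24 h array limma called 191 and 18, without the 48 h array 256 and 7, and without any early array 0 and 0; the lone late array is then assumed to vary like the early ones, and the cause was not tested. Of the 17 and 79 genes with a 2-fold gap, 17 and 79 did not overlap after quantile normalization, 14 of 15 and 71 of 76 with the median over probe sets, and 11 of 14 and 53 of 57 without those that can match several transcripts. The log2 difference changed sign with the median over probe sets for B2M (-0.016), SOCS3 (-0.23), SOCS1 (-0.30), AXIN2 (-0.0037), CD24 (0.040), CASP8 (-0.0013), COX5A (-0.13), RPS28 (-0.65), COL1A1 (0.14) and VIL1 (0.23). It changed without probe sets of these suffixes for DNAH3 (-0.091), NFKBIA (0.042), PLAUR (0.28), DNAJA1 (-0.23), CASP9 (0.16), MCM4 (-0.18), COX5A (-0.55), RPS28 (-0.65) and COL3A1 (-0.047). KRT20 ranged from -0.16 to 0.87 over the arrays left out, with -0.05 without the 1 h array, and FOS was 0.33 between the 24 and 1 h arrays alone. No paired analysis was possible because each time has 1 array and the replicate numbers only name it. Signals near the floor limit what can be ordered, and a late array was at the floor for 14 of the 79 genes.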
